A study of Rattus norvegicus with 16 samples.

Results

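The genes described here are 27 genes of cholesterol biosynthesis and its control by SREBP2, chosen by name and not by their values. They cover the enzymes from acetoacetyl-CoA to cholesterol, the transcription factor SREBP2 (gene Srebf2) with the proteins that hold, escort and cut it, and the sterol carrier Stard4. Each gene was read from its brightest array probe, found through the accession that the probe carries. A probe was found for 26 genes, and 24 passed the filter on dim probes, out of 11091 features that passed it in all (26913 names on the array). The liver signal of all 24 stood well above background on 4 of 4 arrays of every group. Lbr, which like Tm7sf2 encodes a sterol C14 reductase, had no probe matched here. Mbtps2, which encodes the site-2 protease that makes the last cut of SREBP2, was well above background on 0 arrays. Ggps1, which encodes geranylgeranyl diphosphate synthase on the branch towards protein prenylation, was well above background on 0 MM arrays and on 1 array each of M, CC and C. These 3 genes were not tested.

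The study asked how adoption of a litter at birth (cross-fostering) and exposure to a contaminant mixture before weaning bear on RNA levels in the adult liver. Male Sprague-Dawley rats aged 78 to 86 days gave 4 groups. MM rats were born to dams dosed at 1.0 mg/kg/day with a contaminant mixture and were nursed by another exposed dam. The mixture held methylmercury, polychlorinated biphenyls and organochlorine pesticides. M rats had the same exposure and stayed with their own mothers. CC rats were born to corn oil dams and nursed by another corn oil dam, and C rats stayed with their own corn oil mothers. Dams were dosed from the start of gestation to postnatal day 20. The M arrays were taken as exposed, as their titles and treatment say, although another label field has the word control. Each group had 8 pups, pooled in pairs, so each of its 4 arrays stands for 2 rats, and p-values measure the spread between pools. Whether pooled pups were littermates is not known. Liver RNA was labelled with Cy5 and a universal reference RNA made from 14 rat cell lines with Cy3 on all arrays, and dyes were not swapped. All levels below are log2 of liver over reference for 1 probe, after a normalization that centres each array at each brightness. A value of 0 is therefore that centre and not equal signal in both channels, and levels of different genes are not set against each other. In RNA from whole liver, fewer cells of a type and less RNA per cell cannot be told apart.

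In the liver channel 35% to 41.9% of all probes stood well above background. The MM and M arrays lay on 1 slide and the CC and C arrays on the other, so exposure and slide cannot be told apart, while the fostering comparisons lie within a slide. Each slide had 2 rows of 4 columns, and each group had 2 arrays in each row, one of them in columns 1 and 2 and the other in columns 3 and 4. M and CC arrays lay in columns 1 and 3 of the first row and 2 and 4 of the second. MM and C arrays lay the other way round, so a fostering difference within 1 row also compares columns. The scanner software's spread between repeat spots in the liver channel (median coefficient of variation per array) was 22.4% to 40% on the 4 arrays of the first column, one per group, and 9.54% to 28.8% on the other arrays. It was highest on MM replicate 3. Hepatocyte markers averaged 5.95 to 6.44 over the 16 arrays (log2 liver over reference, 10 of 10 markers tested), which fits the labelled tissue.

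Cells make cholesterol from acetyl-CoA through mevalonate, isoprenoid diphosphates, squalene and lanosterol, and the liver is a main site of this synthesis. When membranes of the endoplasmic reticulum are low in sterol, SCAP carries SREBP2 to the Golgi, where the site-1 and site-2 proteases release its transcription factor part, which raises transcription of nearly every enzyme of the pathway. When sterol is plentiful, INSIG1 and INSIG2 hold SCAP back, so the genes of the enzymes are known for moving together with the sterol state of the cell. SREBP2 binds sterol regulatory elements, usually beside sites for NF-Y and Sp1.

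Promoters of the members were searched because the members' arrays are compared below for common movement. RefSeq promoters of the GRCr8 assembly, 250 bases before to 50 after the start, were at hand for 20 of the 24 tested members. The others, Pmvk, Fdft1, Sqle and Stard4, are named only. The NF-Y motif CCAAT, on either strand, was in 15 of the 20 windows (75%) and in 37.5% of all 33469 promoters in the table. At least 2 copies were in 10 of the 20, and in 11.2% of all promoters. The Sp1 motif GGGCGG, on either strand, was in 17 of the 20 (85%), against 33.1% of all promoters. The sterol regulatory element searched, TCACNCCAC on either strand, was in 0 of the 20 windows and in 1.12% of all promoters, which says only that these exact letters are not in these windows. Each motif was searched on its own, and matches that share bases were all counted. The promoters in the table were not narrowed to genes tested in liver here, so these shares do not single out the members. The bases before the start are shown for 4 enzymes, 1 each from the early, prenyl and sterol steps and Hmgcs1, chosen after their values were seen because they hold 2 or more NF-Y motifs and take part in the coexpression described below. Capitals mark CCAAT or its reverse complement ATTGG, and each sequence runs 5′ to 3′ on the gene's strand.
Hmgcs1: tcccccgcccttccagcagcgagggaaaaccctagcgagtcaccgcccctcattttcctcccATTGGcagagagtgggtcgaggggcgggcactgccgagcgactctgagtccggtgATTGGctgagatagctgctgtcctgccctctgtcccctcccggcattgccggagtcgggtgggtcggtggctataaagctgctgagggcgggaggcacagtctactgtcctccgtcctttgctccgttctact
Idi1: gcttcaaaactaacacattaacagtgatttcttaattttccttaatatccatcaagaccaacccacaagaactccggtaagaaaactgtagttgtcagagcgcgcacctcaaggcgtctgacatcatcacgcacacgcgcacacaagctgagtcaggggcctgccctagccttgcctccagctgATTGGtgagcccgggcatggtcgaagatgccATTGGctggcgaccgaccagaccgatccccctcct
Fdps: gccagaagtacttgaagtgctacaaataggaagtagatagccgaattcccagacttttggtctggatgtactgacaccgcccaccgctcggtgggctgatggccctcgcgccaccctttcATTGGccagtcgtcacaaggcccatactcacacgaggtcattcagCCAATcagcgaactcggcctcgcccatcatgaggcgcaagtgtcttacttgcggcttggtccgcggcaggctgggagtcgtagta
Msmo1: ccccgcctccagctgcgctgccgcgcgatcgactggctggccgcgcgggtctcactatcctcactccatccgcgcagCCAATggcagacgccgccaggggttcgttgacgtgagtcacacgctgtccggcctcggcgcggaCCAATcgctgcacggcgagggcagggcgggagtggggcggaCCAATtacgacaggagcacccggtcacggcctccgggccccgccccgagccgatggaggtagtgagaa
Hmgcs1 lies on the plus strand (chr2:53382054-53382303), as does Msmo1 (chr16:29746863-29747112). Idi1 (chr17:66547525-66547774) and Fdps (chr2:176804817-176805066) lie on the minus strand. The Hmgcs1, Idi1 and Fdps stretches hold 2 NF-Y motifs each and the Msmo1 stretch holds 3. In Hmgcs1 and Idi1 all copies read ATTGG, in Msmo1 all read CCAAT, and Fdps has both.

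Most members lay above the centre of the normalized ratios. The mean over 16 arrays was above 0 for 16 of 24 members (66.7%, median 0.34), against 54.9% of all features tested (median 0.11), and these are descriptions with no test. Among the enzymes of late sterol synthesis, Nsdhl, which encodes the decarboxylating dehydrogenase of sterol C4 demethylation, averaged 2.7 ± 0.45 (SD, n = 16 arrays). Tm7sf2 averaged 2.56 ± 0.4. Ebp, which encodes the sterol isomerase, averaged 2.27 ± 0.12, and Sc5d, which encodes the lathosterol desaturase, averaged 2.16 ± 0.2. These 4 probes were above 0 on all 16 arrays, with lowest values of 1.51, 1.72, 2.08 and 1.84. Dhcr7, which encodes the last reductase of the Kandutsch-Russell route, averaged 1.12 ± 0.24, and Hsd17b7, which encodes the ketosteroid reductase of C4 demethylation, 1.02 ± 0.23. Cyp51, which encodes lanosterol demethylase, averaged 0.26 ± 0.29, and Msmo1, which encodes the C4 methyl sterol oxidase, averaged -0.34 ± 0.38.

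The earlier enzymes were mixed. Hmgcs1, which encodes the cytosolic synthase that makes HMG-CoA, averaged 0.91 ± 0.42 and ran from 0.13 to 1.65. Acat2, which encodes the cytosolic acetoacetyl-CoA thiolase, was below 0 on every array (-1.65 to -0.95), as were Mvd, which encodes mevalonate diphosphate decarboxylase (-2.11 to -1.23), and Sqle, which encodes squalene epoxidase (-1.76 to -0.77). Fdft1, which encodes squalene synthase, was above 0 on every array (0.34 to 1.25). The means of Mvk (-0.032), Pmvk (0.0054), Idi1 (0.1), Lss (-0.076) and Fdps (0.36) were nearer to 0, and each of these 5 probes had arrays on either side of 0. Mvk and Pmvk encode the kinases that phosphorylate mevalonate, Idi1 the isopentenyl diphosphate isomerase, Fdps the farnesyl diphosphate synthase and Lss the lanosterol synthase.

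Of the control genes, both INSIG genes had normalized ratios above 0 on all arrays. Insig2 averaged 3.95 ± 0.48, and Insig1 averaged 1.75 ± 0.38. Scap averaged 0.64 ± 0.12. Srebf2 (-1.18 to -0.39) and Mbtps1, the site-1 protease gene (-0.88 to -0.53), were below 0 on every array. Stard4, which encodes a carrier of sterol between membranes, averaged 0.32 ± 0.22.

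No member passed the test in either fostering comparison. With limma on all 16 arrays and Benjamini-Hochberg adjustment over the 11091 features, the members called at an adjusted p under 0.05 numbered 0 of 24 in MM minus M and 0 of 24 in CC minus C. The background was 0% of features called in each of the 2 comparisons. At an unadjusted p under 0.05, 1 member stood in MM minus M, against 1.76% of features, and 0 in CC minus C, against 0.965%. In exposed rats the members lay mostly above their values in unfostered rats, with 17 of 24 differences above 0 and a median of 0.11, while the median of all features was 0.0015 (50.6% above 0). In control rats they lay mostly below, with 5 of 24 above 0 and a median of -0.1, against -0.008 over all features (46.8% above 0). The MM and M arrays of Acat2 did not overlap, which held for 1.08% of all features in that comparison, and the CC and C arrays overlapped for every tested member (0.884% of features did not overlap).

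The count in control rats depended on the slide row and on 3 arrays. Within the first row 3 of 24 members lay above 0 in CC minus C (median -0.15), and within the second row 12 of 24 did (median 0.00029). Fostered and unfostered arrays swapped columns between the rows, so any split by row also carries column order. Without CC replicate 4 the count was 15 of 24 and the median 0.025, so the direction turned. Without C replicate 9 the count was 12, and without C replicate 11 it was 3, which kept the direction. In MM minus M the count was 16 within the first row and 19 within the second, with medians of 0.076 and 0.28. It ran from 13 to 19 when any 1 array was left out, and was 19 without the arrays of the first column, where CC minus C gave 5. The liver channel alone gave medians of 0.13 in MM minus M and -0.086 in CC minus C.

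**Figure D1:**
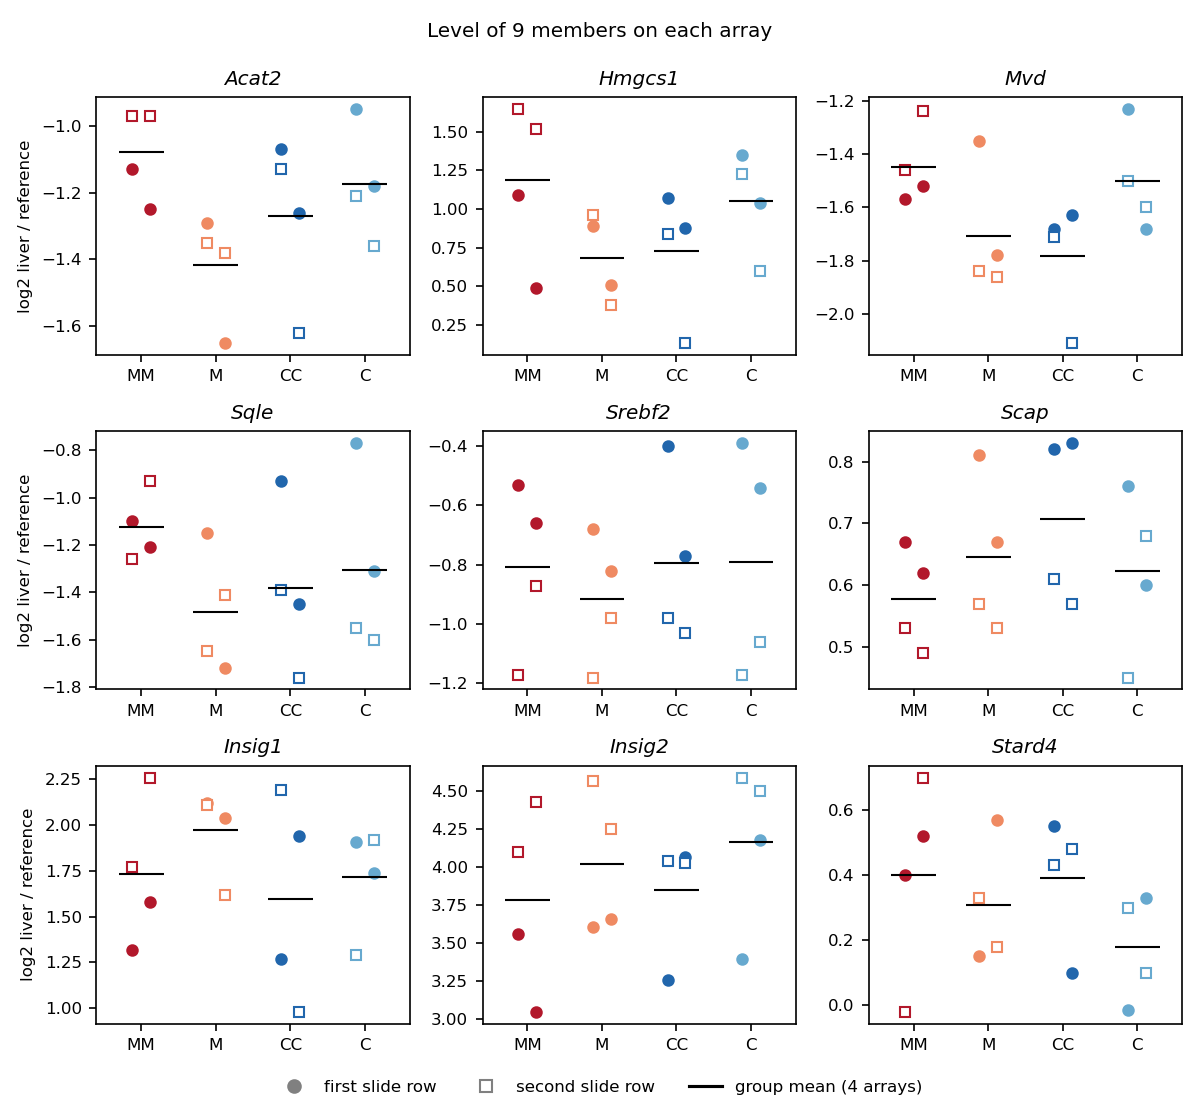
Log2 liver over reference (vertical axis) of 9 members on each of the 16 arrays, by group. Filled circles are arrays of the first slide row, open squares those of the second row and bars the mean of 4 arrays. Acat2 has its 4 MM arrays above its 4 M arrays, and Srebf2 has every second-row array below every first-row array.

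The mevalonate enzymes held the members with the lowest p in these comparisons. In the values that follow, each group's first 2 arrays come from the first slide row and its last 2 from the second. Hmgcs1 had log2 ratios of 1.09, 0.49, 1.65 and 1.52 in MM and 0.89, 0.51, 0.96 and 0.38 in M. It had 1.07, 0.88, 0.84 and 0.13 in CC and 1.35, 1.04, 1.23 and 0.6 in C. The groups overlapped in both comparisons, with the second-row MM arrays the highest of all and CC replicate 4 the lowest. The difference was 0.5 ± 0.25 (SE, 95% interval -0.037 to 1.04) in MM minus M and -0.33 ± 0.25 (-0.86 to 0.21) in CC minus C, with an adjusted p of 1 in both (limma). Within the first row MM minus M was 0.089 and within the second 0.91. MM and M swapped columns between the rows, so row and column order cannot be told apart in this split.

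Acat2 had -1.13, -1.25, -0.97 and -0.97 in MM and -1.29, -1.65, -1.35 and -1.38 in M. It had -1.07, -1.26, -1.13 and -1.62 in CC and -0.95, -1.18, -1.21 and -1.36 in C. Every MM array lay above every M array, and CC and C overlapped. The difference was 0.34 ± 0.13 (0.069 to 0.61) in MM minus M, with an unadjusted p of 0.0171 and an adjusted p of 1 (limma), and -0.094 ± 0.13 in CC minus C. It held in each row of MM minus M, at 0.28 in the first and 0.4 in the second.

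Mvd had -1.57, -1.52, -1.46 and -1.24 in MM and -1.35, -1.78, -1.84 and -1.86 in M. It had -1.68, -1.63, -1.71 and -2.11 in CC and -1.23, -1.68, -1.5 and -1.6 in C. M replicate 5 stood above the other M arrays and CC replicate 4 below the other CC arrays. The difference was 0.26 ± 0.14 (-0.034 to 0.55) in MM minus M and -0.28 ± 0.14 (-0.58 to 0.013) in CC minus C, and neither passed. Over the 6 mevalonate enzymes, 5 were above 0 in MM minus M (median 0.3) and 0 in CC minus C (median -0.16). Their remaining differences were 0.34 for Idi1, 0.091 for Mvk and -0.0097 for Pmvk in MM minus M, and -0.18, -0.14 and -0.14 in CC minus C.

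The enzymes from farnesyl diphosphate to lanosterol also had no called member. Sqle had -1.1, -1.21, -1.26 and -0.93 in MM and -1.15, -1.72, -1.65 and -1.41 in M. It had -0.93, -1.45, -1.39 and -1.76 in CC and -0.77, -1.31, -1.55 and -1.6 in C. Only M replicate 5 reached into the MM range, and CC and C overlapped widely. The difference was 0.36 ± 0.19 (-0.049 to 0.77) in MM minus M and -0.076 ± 0.19 (-0.48 to 0.33) in CC minus C. Fdft1 differed by 0.14 ± 0.15 in MM minus M and -0.11 ± 0.15 in CC minus C, and Lss by 0.28 ± 0.2 and 0.064 ± 0.2. Fdps gave 0.11 ± 0.2 and -0.13 ± 0.2 by the probe used, while its second probe gave -0.026 and -0.029, so its probes disagreed in direction in MM minus M.

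Of the 8 tested enzymes from lanosterol to cholesterol, 5 were above 0 in MM minus M (median 0.12) and 2 in CC minus C (median -0.087), with 0 called. Msmo1 gave 0.38 ± 0.25 in MM minus M, Hsd17b7 0.24 ± 0.16, Cyp51 0.23 ± 0.17, Ebp 0.16 ± 0.086 and Dhcr7 0.093 ± 0.16. Sc5d (-0.0092 ± 0.15), Tm7sf2 (-0.044 ± 0.28) and Nsdhl (-0.24 ± 0.3) lay below 0. In CC minus C the same 8 enzymes lay between -0.18 for Dhcr7 and 0.025 for Hsd17b7.

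**Figure D2:**
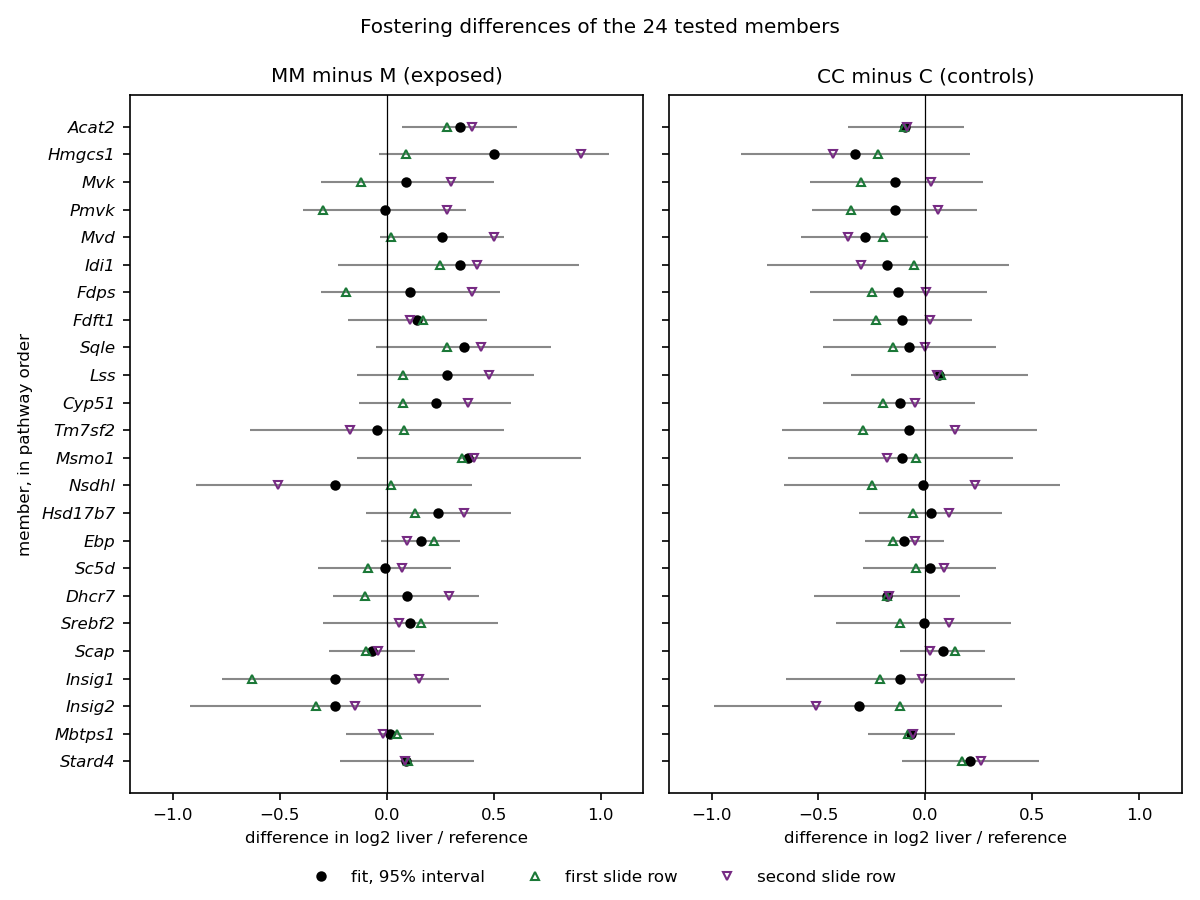
Differences in log2 liver over reference (horizontal axis) of the 24 tested members, in pathway order, for MM minus M on the left and CC minus C on the right. Black points are the fitted differences with 95% intervals, and triangles are the differences within the first and the second slide row. 17 of 24 points lie above 0 in MM minus M and 5 of 24 in CC minus C, with an interval that leaves out 0 only for Acat2 in MM minus M.

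Of the 5 tested control genes, 2 were above 0 in MM minus M (median -0.068) and 1 in CC minus C (median -0.069), with 0 called. Srebf2 had -0.53, -0.66, -1.17 and -0.87 in MM and -0.68, -0.82, -1.18 and -0.98 in M. It had -0.4, -0.77, -0.98 and -1.03 in CC and -0.39, -0.54, -1.17 and -1.06 in C. The spread lay between slide rows and the groups overlapped in full. The difference was 0.11 ± 0.19 (-0.3 to 0.52) in MM minus M and -0.0063 ± 0.19 (-0.42 to 0.4) in CC minus C.

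Scap had 0.67, 0.62, 0.53 and 0.49 in MM and 0.81, 0.67, 0.57 and 0.53 in M. It had 0.82, 0.83, 0.61 and 0.57 in CC and 0.76, 0.6, 0.45 and 0.68 in C. It varied little, with differences of -0.068 ± 0.094 in MM minus M and 0.082 ± 0.094 in CC minus C. Its interval of -0.27 to 0.13 in MM minus M and of -0.12 to 0.28 in CC minus C bounds any fostering difference more tightly than that of most members.

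Insig1, itself a well known SREBP target, had 1.32, 1.58, 1.77 and 2.26 in MM and 2.12, 2.04, 2.11 and 1.62 in M. It had 1.27, 1.94, 2.19 and 0.98 in CC and 1.91, 1.74, 1.29 and 1.92 in C. MM and CC were widely spread, and the differences were -0.24 ± 0.25 (-0.77 to 0.29) in MM minus M and -0.12 ± 0.25 (-0.65 to 0.42) in CC minus C. Insig2 had 3.56, 3.05, 4.1 and 4.43 in MM and 3.61, 3.66, 4.57 and 4.25 in M. It had 3.26, 4.07, 4.04 and 4.03 in CC and 3.4, 4.18, 4.59 and 4.5 in C. Most of its low arrays were in the first row, and the differences were -0.24 ± 0.32 in MM minus M and -0.31 ± 0.32 in CC minus C. Mbtps1 differed by 0.015 ± 0.097 in MM minus M and -0.069 ± 0.097 in CC minus C.

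Without the 4 arrays of the first column, several control gene values moved, and none passed. In CC minus C, Insig2 was then 0.023, Scap -0.014 and Srebf2 -0.27. In MM minus M they were -0.48, 0.0034 and 0.31, so the direction turned for Insig2 in CC minus C and for Scap in both. Sqle was then 0.52 in MM minus M and -0.31 in CC minus C.

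Stard4 had 0.4, 0.52, -0.021 and 0.7 in MM and 0.15, 0.57, 0.33 and 0.18 in M. It had 0.55, 0.099, 0.43 and 0.48 in CC and -0.016, 0.33, 0.3 and 0.097 in C. MM and M overlapped in full. The difference was 0.092 ± 0.15 in MM minus M and 0.21 ± 0.15 (-0.11 to 0.53) in CC minus C, and its second probe gave 0.038 and 0.091.

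The test of whether fostering acted differently in exposed and control rats is the interaction, MM minus M less CC minus C. MM and C arrays held the same slide positions, and M and CC arrays the others. Each group had arrays in both rows and in every column, so additive row and column differences balance. A difference between these sets of positions, if shared by both slides, cannot be told apart from the interaction. Within a slide, it cannot be told apart from a fostering difference either. The interaction called 0 of 24 members and 0% of features after adjustment. At an unadjusted p under 0.05 it held 3 members, against 1.66% of features. These were Mvd at 0.54 ± 0.2 (95% interval 0.13 to 0.96), Acat2 at 0.43 ± 0.18 (0.051 to 0.81) and Hmgcs1 at 0.83 ± 0.36 (0.068 to 1.59), each with an adjusted p of 1 (limma). All 6 mevalonate enzymes and 19 of 24 members lay above 0, with medians of 0.47 and 0.22, against 0.0083 over all features (52.1% above 0). The members' median was 0.21 within the first row, 0.26 within the second and 0.22 in the liver channel alone. It was 0.43 without the arrays of the first column, a set that leaves the groups unequal over rows. Of these 3 genes Hmgcs1 differed most by row, at 0.31 in the first and 1.34 in the second. That split also carries column order. Srebf2 (0.11 ± 0.27), Insig1 (-0.12 ± 0.35), Insig2 (0.078 ± 0.45) and Scap (-0.15 ± 0.13) did not pass.

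The comparisons of exposed with control rats also called no member. M minus C called 0 of 24 members and 4.1% of features (1.54% higher and 2.56% lower). MM minus CC called 0 of 24 members and 0.902% of features (0.289% higher and 0.613% lower). At an unadjusted p under 0.05 there were 2 members in each, Cyp51 and Ebp in M minus C and Mvd and Idi1 in MM minus CC, against 17.3% and 11.1% of features. In M minus C 8 of 24 members were above 0 (median -0.074, all features -0.029), and in MM minus CC 17 of 24 were (median 0.14, all features -0.025). Without C replicate 9 the M minus C count was 15, and without M replicate 5 it was 5. The lowest p in M minus C was that of Cyp51, at -0.46 ± 0.17 (adjusted p = 0.147, limma). Its M arrays lay below its C arrays without overlap, as did those of Ebp (-0.2 ± 0.086), and 10.9% of features did not overlap. In MM minus CC the groups did not overlap for Mvd (0.34 ± 0.14), against 6.61% of features.

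The reference, the same RNA on every array, also differed between the slides. The reference signal alone called 48.5% of features in M minus C and 45.3% in MM minus CC, and 14 and 13 of the 24 members. The liver signal alone called 0.00902% and 0.027% of features, and 0 members in both. For Cyp51 the reference signal was 10.89, 10.88, 10.87 and 10.86 (log2 intensity) on the M arrays and 10.64, 10.66, 10.65 and 10.62 on the C arrays, a difference of 0.23 with no overlap (adjusted p = 6.75e-08, limma). Its liver signal differed by -0.22 (adjusted p = 0.865). Cyp51 passed in M minus C with slide row as a block (adjusted p = 0.0461, limma) and with slide row and column as blocks (adjusted p = 0.0235), and was the 1 member called in each. Both settings were chosen for this comparison after the data were seen. The column block set columns 1 and 2 against columns 3 and 4 only.

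In a fit with group, slide row and column, 12 of 24 members (50%) differed between the second and the first slide row. This is near the background of 45.8% of all features, so it is no result about the members as a set. Column entered this fit as columns 1 and 2 against columns 3 and 4. The rows hold different pools of rats, so row and pool cannot be told apart. Of these members 8 were lower in the second row, against 24.2% of features, and 4 were higher, against 21.6%. Srebf2 ran from -1.18 to -0.87 (median -1.05) on the 8 arrays of the second row and from -0.82 to -0.39 (median -0.6) on the 8 of the first. Its rows did not overlap, which held for 9.48% of features, and the difference was -0.46 ± 0.072 (adjusted p = 0.000268, limma). Insig2 ran from 4.03 to 4.59 (median 4.34) in the second row and from 3.05 to 4.18 (median 3.58) in the first, a difference of 0.71 ± 0.14 (adjusted p = 0.000929).

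The other members lower in the second row were Tm7sf2 and Nsdhl (both -0.59), Idi1 (-0.53), Msmo1 (-0.46), Fdft1 (-0.28), Sc5d (-0.23) and Scap (-0.17). The other members higher there were Mvk (0.43), Hsd17b7 (0.22) and Mbtps1 (0.18). Hmgcs1 (-0.0014 ± 0.11), Acat2 (-0.029 ± 0.057) and Stard4 (-0.015 ± 0.1) gave values near 0. The shift sat in the liver signal, which differed by -0.5 for Srebf2 and 0.75 for Insig2 (adjusted p of 0.000205 and 0.000421). The reference signal of these 2 genes did not pass (adjusted p of 0.568 and 0.754). Fewer calls came from columns, with 0 members and 0.027% of features. Even so, 18 of 24 members were lower in columns 3 and 4 than in columns 1 and 2 (median -0.13, all features -0.0085). Hmgcs1 and Acat2 were higher in the lower-numbered column of all 8 pairs of arrays of the same group and row, which held for 2.52% of features, while 1.46% were lower there in all 8. Columns 3 and 4 differed from columns 1 and 2 by -0.44 ± 0.11 and -0.2 ± 0.057 (adjusted p of 0.0931 and 0.126, limma).

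**Figure D3:**
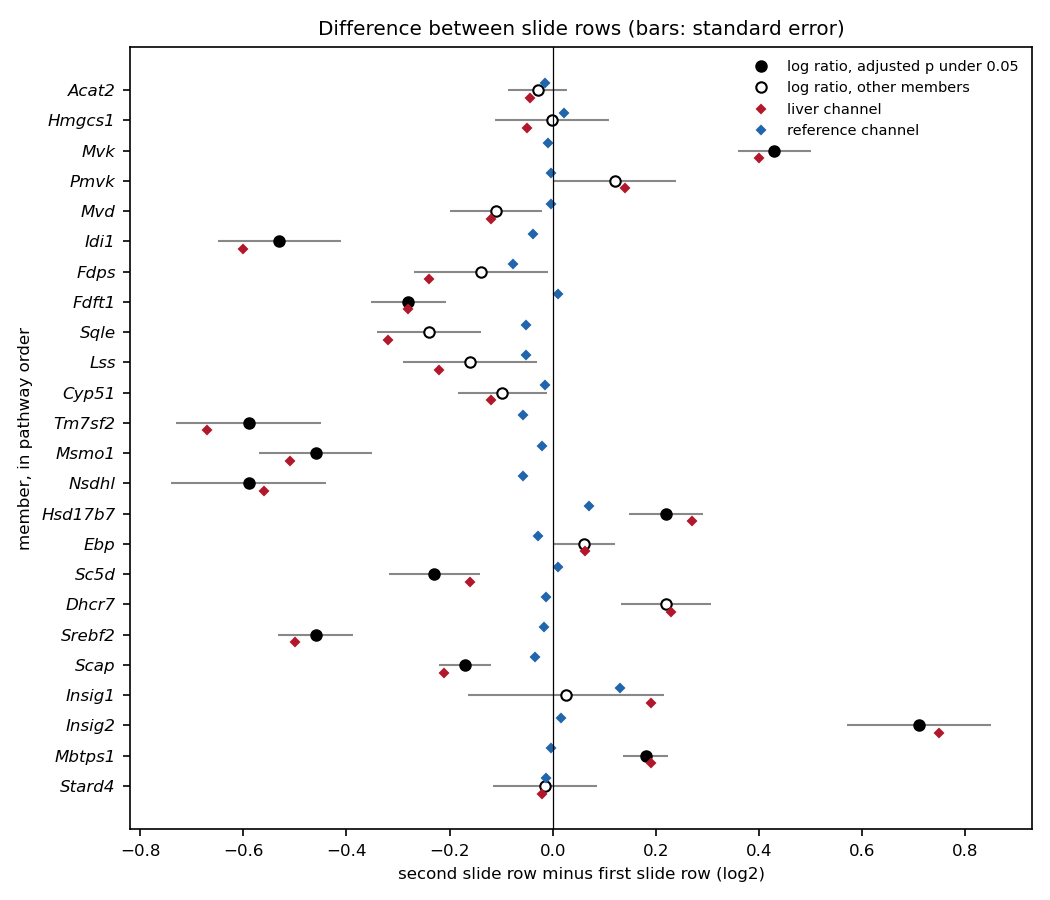
Second slide row minus first slide row (horizontal axis, log2) for each tested member from the fit with group, row and column (columns 1 and 2 against columns 3 and 4). Circles with standard errors are log ratios, filled where the adjusted p is under 0.05, and diamonds are the liver and reference signals alone. 12 of 24 members are filled, and the liver diamonds lie with the circles while the reference diamonds lie near 0.

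The enzymes varied together between pools. Group means were subtracted first, so that only the spread between the 4 pools of a group counts, and the 16 arrays share slides, rows and columns. Over the 153 pairs of tested enzymes the median correlation was 0.43, and 32.7% of pairs reached 0.6. Over all pairs of the features measured on every array the median was 0.0046, and 10.6% reached 0.6. Pairs of an enzyme with a control gene had a median of 0.19. With slide row and column removed as well, the medians were 0.49 for enzyme pairs, 0.13 for enzymes with control genes and 0.0028 for all pairs of features, with 31.4%, 16.7% and 5.44% of pairs at 0.6 or more. These are descriptions over the same 16 arrays, with no test. Here and below, column was removed as columns 1 and 2 against columns 3 and 4. Differences within each pair of columns stay in.

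Enzyme pairs ran from -0.64 to 0.94, and the pairs named next are among the highest and the lowest. Idi1 and Msmo1 correlated at 0.94 over the 16 arrays, and at 0.84 with row and column removed. Sqle and Msmo1 correlated at 0.92 and 0.87, Idi1 and Sqle at 0.89 and 0.89, and Acat2 and Cyp51 at 0.9 and 0.79. Hsd17b7 and Dhcr7 correlated at 0.89 and 0.91. At the other end, Mvk and Nsdhl correlated at -0.64 over the 16 arrays and -0.014 with row and column removed. Nsdhl and Dhcr7 correlated at -0.63 and -0.18, and Mvk and Tm7sf2 at -0.6 and 0.19. Outside the enzyme pairs, Pmvk and the control gene Insig1 correlated at 0.81 and 0.9. Among single genes, Msmo1 had a median correlation with the other 17 enzymes of 0.7, Cyp51 and Sc5d of 0.63 and Sqle of 0.61.

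The control genes fell on both sides. Srebf2 had a median correlation with the 18 enzymes of 0.38, Scap of 0.44 and Insig1 of 0.44. Insig2 (-0.25) and Mbtps1 (-0.5) ran against the enzymes, and remained negative with row and column removed, at -0.18 and -0.41. Srebf2 and Insig2 correlated at -0.81 over the arrays and at -0.48 with row and column removed. Mvk (-0.022) and Stard4 (-0.1) had medians near 0 with the enzymes.

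**Figure D4:**
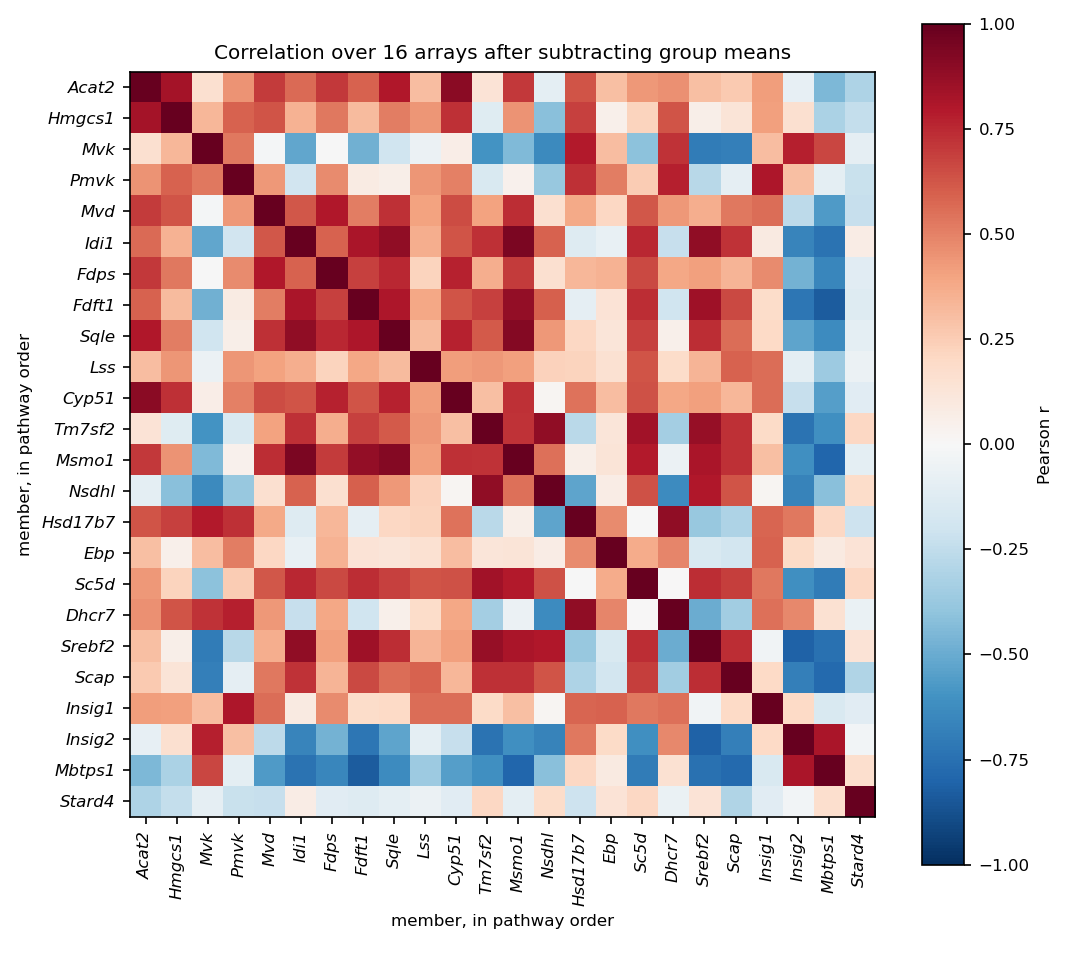
Pearson correlation between each pair of the 24 tested members over 16 arrays after subtracting group means, in pathway order on both axes, with red above 0 and blue below. Most enzyme pairs are red, with 0.94 for Idi1 and Msmo1, while the Insig2 and Mbtps1 lines are blue against most enzymes.

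Hmgcs1, as a member early in the pathway, was tested against each of the other 23 tested members with a two-sided permutation test (100000 resamples within groups). Of the 23, 19 had r above 0 (median 0.35), against 53% of 11084 other features (median 0.029). At an unadjusted p under 0.05 there were 7. The share of all features at that level is not given here, so this count is no result about the members. Adjusted over the 11084 features none of the 23 passed, and no feature of any kind did (smallest adjusted p 0.222). Acat2 had r = 0.83 and rho = 0.79 (permutation p = 0.00048 and 0.00137, n = 16 arrays). Its adjusted p over all features was 0.372, and 0.0812% of features had an r as high. Cyp51 had r = 0.73 and rho = 0.72 (permutation p = 0.00388 and 0.00567), with an adjusted p over all features of 0.403. Adjusted over the 23 relations alone, which is not independent evidence for genes chosen with results of these data known, 2 members passed on r, Acat2 (permutation, adjusted p = 0.011) and Cyp51 (0.0446). Without CC replicate 4 no member passed that adjustment and the median r was 0.19.

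Without the 2 arrays farthest from the median of Hmgcs1, MM replicate 2 and CC replicate 4, r was 0.75 for Acat2 and 0.67 for Cyp51. Within group and row it was 0.8 and 0.61 (exact permutation p = 0.00781, the smallest this design allows, and 0.0859). With row and column removed it was 0.37 and 0.35. With only group means subtracted, Hsd17b7 (r = 0.68), Mvd (0.63), Dhcr7 (0.63), Pmvk (0.59), Fdps (0.53) and Sqle (0.51) came next. Srebf2 (0.062), Scap (0.13) and Insig2 (0.16) lay near 0, and Nsdhl (-0.42), Mbtps1 (-0.32) and Stard4 (-0.24) were negative. The order changed with row and column removed. Dhcr7 (0.67), Mvd (0.63), Mvk (0.62), Pmvk (0.59), Insig1 (0.58), Insig2 (0.57), Hsd17b7 (0.53) and Lss (0.39) then lay above Acat2. Srebf2 was then at -0.26, Scap at 0.043, Sqle at 0.058 and Stard4 at 0.18.

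Neighbouring pathways were read from lists of genes outside the members, and none held a called gene in a fostering comparison (limma, adjusted). Of 10 tested SREBP2-linked genes outside the members, 5 were above 0 in MM minus M (median 0.057) and 5 in CC minus C (median 0.0013), with 0 and 1 at an unadjusted p under 0.05. Among them Acly, which encodes the citrate lyase that supplies cytosolic acetyl-CoA, gave 0.35 ± 0.38 in MM minus M and -0.25 ± 0.38 in CC minus C. Acss2, which encodes a synthetase that makes acetyl-CoA from acetate, gave -0.011 ± 0.13 and -0.16 ± 0.13.

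Of 6 SREBP1 and fatty acid synthesis genes, 3 were above 0 in MM minus M (median 0.0076) and 0 in CC minus C (median -0.26). Elovl6, the fatty acid elongase gene, gave 0.34 ± 0.41 and -0.54 ± 0.41, and Acaca, the acetyl-CoA carboxylase gene, gave 0.077 ± 0.15 and -0.21 ± 0.15. Of 6 genes of the LXR and sterol export list, 0 were above 0 in MM minus M (median -0.057) and 3 in CC minus C (median -0.016). Abca1, the cholesterol exporter gene, gave -0.0078 ± 0.15 and -0.29 ± 0.15. Of 4 tested genes of sterol-regulated enzyme turnover, 1 was above 0 in MM minus M (median -0.1) and 3 in CC minus C (median 0.06), with Rnf139, an E3 ubiquitin ligase gene, at -0.15 ± 0.094 and 0.11 ± 0.094. Of 9 genes of the isoprenoid branches, 4 were above 0 in each (medians -0.013 and -0.078), with Fntb, a farnesyltransferase subunit gene, at -0.058 ± 0.12 and -0.082 ± 0.12.

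Markers of other cells in the liver are given beside these comparisons, and their part in the members' values was not tested. The mean of the 4 tested erythroid markers of 7 listed ran from 3.19 to 4.58 in MM and from 3.19 to 3.78 in M, and from 3.42 to 4.11 in CC and from 3.91 to 4.14 in C. All 4 were above 0 in MM minus M (median 0.38) and below 0 in CC minus C (median -0.17), with 0 called. The mean of the 4 tested sinusoidal endothelium markers of 7 ran from 2.3 to 2.62 in MM, 2.6 to 2.74 in M, 2.55 to 2.79 in CC and 2.23 to 2.72 in C. Of these, 1 was above 0 in MM minus M (median -0.19) and all 4 in CC minus C (median 0.21). In M minus C, 0 of 4 erythroid markers were above 0 (median -0.65), with Hbb-b1 called lower at -0.88 ± 0.24 (adjusted p = 0.0494, limma). Also in M minus C, 0 of 10 hepatocyte markers were above 0 (median -0.27), with Tf called lower at -0.56 ± 0.15 (adjusted p = 0.0488). Of 6 stellate cell markers 1 was above 0 there (median -0.18), with Pdgfrb called lower at -0.48 ± 0.088 (adjusted p = 0.00518, limma). Of the 4 endothelial markers 3 were above 0 (median 0.082), with Eng called higher at 0.66 ± 0.15 (adjusted p = 0.0231, limma). M minus C called 4.1% of all features, and exposure and slide cannot be told apart in it. In the liver signal alone its medians were -0.55 (erythroid), -0.054 (hepatocyte, 3 of 10 above 0), -0.14 (stellate cell) and 0.16 (endothelium). The 10 hepatocyte markers had medians of 0.078 in MM minus M and -0.011 in CC minus C, with 7 and 4 above 0. The 6 stellate cell markers had medians of 0.038 and -0.089, with 6 and 1 above 0. The 8 Kupffer cell and macrophage markers had medians of -0.032 and 0.06 and the 4 tested of 5 cholangiocyte markers 0.13 and 0.043. Of the 6 B and T cell markers 1 was tested, at 0.15 and -0.0051.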

How the data were processed

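Liver RNA was measured on 16 Agilent arrays, 4 per group, each of a pool of 2 rats. Per the file headers, the deposited intensity values are medians per spot and of its surroundings, read by Agilent Feature Extraction 11.0.1.1, beside that software's log10 ratio of red to green. The authors' deposited value table is on the log2 scale, as found here. Its columns correlated at 0.989 to 0.995 with log2 liver over reference after loess with no background step (slopes 0.979 to 0.994), its array medians ran from -0.0382 to -0.0273, and any further centring is not known. Other steps are not given in the sources used here.

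Background was corrected by normexp with an offset of 50, and each array was normalized by loess, with controls weighted 0 (limma 3.58.1, R 4.3.3). Flagged outlier spots were dropped and repeat spots averaged. The files carry no mean signals, so medians were used. Accessions gave 18005 of 30367 probes a symbol through the RefSeq table of GRCr8, and the brightest probe of each name was kept. The filter asked for liver signal well above background on 3 or more of 4 arrays in any group. The limma fit had 4 group means over all 16 arrays and 12 residual degrees of freedom. P-values were adjusted by Benjamini-Hochberg over 11091 features, with a threshold of 0.05. The fit and the correlations were tested on simulated data. The number of arrays limits the precision.

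The members, gene lists and tests were chosen with earlier results of these data known. Values on every array are given for Hmgcs1, Sqle, Insig1, Insig2, Srebf2 and Scap and for the 3 members of lowest p in each fostering comparison and the interaction. From the other lists, genes of low p were named, and some listed genes are not reported here. Promoters were to be printed only for members holding the sterol regulatory element, which none did, so others were chosen. Alternatives were the scanner log ratio, the authors' table, each channel alone, other filters and probes, fewer groups, arrays left out, slide rows and columns, and a replicate block. The labels number both the MM and the CC samples 1 to 4. Same-numbered arrays deviated together from their group means (correlations 0.55, 0.16, 0.58 and 0.19). On both slides numbers 1 and 2 lie in the first row and 3 and 4 in the second. Differently numbered MM and CC arrays of the same row correlated at 0.44, 0.23, 0.33 and 0.16, so these values do not single out pairs by number. The numbers were taken as pairs that share a slide row for the replicate block. M and C share no numbers.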

Additional observations from a re-analysis of the deposited data

Results flagged for a closer look

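In 5 of 96 member and group combinations, 1 of 4 arrays stood far from the other 3 by Dixon's test, and chance gives about 1 in 20. Insig2 on CC replicate 1 was 3.26, against 4.03 to 4.07 on the other CC arrays. Mvd on M replicate 5 was -1.35, against -1.86 to -1.78 on the other M arrays. Msmo1 on MM replicate 3 was -0.4, against -0.046 to 0.014 on the other MM arrays. These 3 arrays lie in the first column of their slide, where the spread between spots was widest, and the part of that spread was not tested. Pmvk on C replicate 9 was 0.2, against -0.094 to -0.066 on the other C arrays, and Insig1 on M replicate 8 was 1.62, against 2.04 to 2.12 on the other M arrays.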

How the results depend on the processing

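No member passed the threshold in MM minus M, CC minus C or the interaction under any alternative run. The scanner log ratio called 1 feature in CC minus C, and slide row and column as blocks called 1 in the interaction. The count of members above 0 in CC minus C was 3 within the first row and 12 within the second, and ran from 3 to 15 when 1 array was left out. The members' median in the interaction was 0.43 without the first slide column. M minus C called 1366 features with the scanner log ratio, 1199 with slide row as a block and 1458 with row and column as blocks (with 1 member in each), 272 with only the arrays of the 2 groups, 249 without the first slide column, 1 from the liver signal alone and 5377 from the reference signal alone (with 14 members). MM minus CC called 491, 439, 595, 14, 28, 3 and 5025 features under the same settings, with 13 members called and 9 above 0 from the reference signal. Leaving out 1 array gave 215 to 449 features in M minus C, 36 to 100 in MM minus CC, and 5 to 15 members above 0 in M minus C. Only M replicate 7 left the first of these counts within 1.5 times of its value. For MM minus CC the count moved further without CC replicate 1, 2 or 3 or MM replicate 2 or 4. Of the reference channel alternatives for named members, Hmgcs1 and Mvd passed in both comparisons and Srebf2 and Scap in M minus C. With the replicate block MM minus CC called 135 features against 100 without it, and no call on a member changed. Members past the threshold with Hmgcs1, adjusted over the 23, numbered 10 with the scanner log ratio, 4 with the authors' table, 0 within group and row and 0 without the first slide column, and 0 (without CC replicate 4) to 3 when 1 array was left out. Within group and row the smallest adjusted p was 0.18. The row and column blocks, the row block in the exposure comparisons and the first column were chosen after seeing the data. The column block set columns 1 and 2 against columns 3 and 4. The causes of these shifts were not tested. With 4 pools a group, the 95% intervals of most members reach beyond 0.3 on the log2 scale.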
